A study of Mus musculus with 8 samples.

Results

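Nrf2 occupancy was examined at 9 genes whose enzymes supply NADPH or carry the pentose phosphate pathway. The members are G6pdx, Pgls and Pgd of the oxidative branch, Rpia, Rpe, Tkt and Taldo1 of the non-oxidative branch, and Me1 and Idh1, which make NADPH in the cytosol outside the pathway. They were picked by name from 21631 protein-coding genes, with earlier results of these data known. A site of a member is any peak whose summit lay in the gene or within 50 kb of either end. By this rule the members had 5 sites among the 469 peaks of the Keap1-null list and 0 among the 151 peaks of the Nrf2-null list. The sites fell at 4 of the 9 genes: G6pdx, Pgd, Tkt and Taldo1. Of all protein-coding genes, 3.70% had a Keap1-null summit in the same window and 0.693% an Nrf2-null summit. The 0 in the Nrf2-null list is thus near the background and is no contrast between the genotypes.

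The peaks came from chromatin immunoprecipitation with sequencing (ChIP-seq) using an Nrf2 antibody on satellite cells (muscle stem cells) that had just been isolated from C57BL/6J hindlimbs. Keap1-null and Nrf2-null cells each gave 2 Nrf2 ChIP and 2 input libraries, and the authors joined the 2 ChIP libraries of a genotype into 1 peak list. Keap1 is the adaptor that directs Nrf2 to degradation, and Nrf2-null cells should, by their label, lack the target of the antibody. The labels name no treatment, and how the null alleles were made, any Cre driver and the age and sex of the mice are not stated there. There is no group that carries both genes, so the sites do not show where Nrf2 lies in satellite cells with Keap1. The cell type could not be checked against marker genes, since peaks hold no expression.

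The oxidative branch turns glucose 6-phosphate into ribulose 5-phosphate and reduces NADP to NADPH on the way. The non-oxidative branch shuffles carbon between pentoses and the sugars of glycolysis. NADPH is the reductant that glutathione reductase and thioredoxin reductase draw on to keep their antioxidant systems running, and Nrf2 is known from other tissues to activate genes of the pathway. Nrf2 binds DNA with a small Maf partner at the antioxidant response element, whose core is written here as TGACNNNGC.

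Promoter letters are shown for the members whose RefSeq promoter entry holds this core, to set them beside the sites; no such core lay under a peak. Each entry runs from 250 bases before an annotated transcription start to 50 after it on build GRCm38.p6, which is mm10. The core is in capitals. The G6pdx stretch ends at the base before the start (chrX:74428881-74429080, minus strand), the Me1 stretch runs to 10 bases past it (chr9:86695905-86696114, minus strand), and the short Pgd stretch surrounds the core at the second annotated start of that gene (chr4:149166064-149166092, minus strand).
G6pdx: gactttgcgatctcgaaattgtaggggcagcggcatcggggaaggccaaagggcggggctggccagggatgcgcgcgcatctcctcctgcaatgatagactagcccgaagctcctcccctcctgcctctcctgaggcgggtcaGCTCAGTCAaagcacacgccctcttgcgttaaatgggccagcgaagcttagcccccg
Me1: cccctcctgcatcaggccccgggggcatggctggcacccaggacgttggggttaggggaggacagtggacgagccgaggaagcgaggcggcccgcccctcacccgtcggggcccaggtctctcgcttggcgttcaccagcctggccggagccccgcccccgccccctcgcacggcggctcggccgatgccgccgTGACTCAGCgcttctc
Pgd: gtcatttcagagcTGACATTGCactgatc

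In G6pdx the core lay 57 to 49 bases before the start and reads TGACTGAGC on the opposite strand. In Me1 it began 6 bases before the start and reads TGACTCAGC, which also contains the AP-1 motif TGANTCA. In Pgd it began at base 4 after the inner start and reads TGACATTGC. The core was thus found in 3 of the 9 members, searching both strands of 12 promoter entries, against 14.9% of 17274 protein-coding genes with an entry. With an A required after the core, Pgd alone was left, against 3.17% of genes, and with the C of TGAC free (TGANNNNGC), Tkt, Taldo1 and Idh1 were added, 6 members against 45.5% of genes. TGANTCA was found in Me1 alone among the members, against 8.19% of genes.

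No member promoter entry was overlapped by a peak of the Keap1-null list. The G6pdx core was 3.55 kb from the G6pdx summit, the Pgd core was 4.78 kb from the nearer Pgd summit, and Me1 had no site. Over all protein-coding genes, 25 promoter entries were overlapped by a Keap1-null peak without an Nrf2-null counterpart, and 10 of them held the core (40.0%, exact 95% Clopper-Pearson interval 21.1 to 61.3), against 12.9% of the other 21020 entries. The letters under the 5 member sites themselves were not analysed here.

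The share of members with a Keap1-null site stood above the share of all genes at every window tried. With 50 kb each side, 4 of 9 members had a Keap1-null site (44.4%, exact 95% Clopper-Pearson interval 13.7 to 78.8, counting error only), against 3.70% of all protein-coding genes. With only the peaks that lack an Nrf2-null counterpart, the members' count was the same and the share of all genes was 3.31%. The same 4 members had a site with 10 kb each side, where the share of all genes was 1.47%, with 20 kb, where it was 1.98%, and with 100 kb, where it was 6.36%. For the Nrf2-null list the members' count was 0 with 50 kb, and 0.693% of all genes had a summit there. With 10, 20 and 100 kb the Nrf2-null share of all genes was 0.287%, 0.435% and 1.22%, and the members' count was 0, 0 and 1. At so low a share 0 of 9 is near the background, and it is no contrast between the genotypes. The members were chosen with results of these data known, so these counts are a description.

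**Figure D1:**
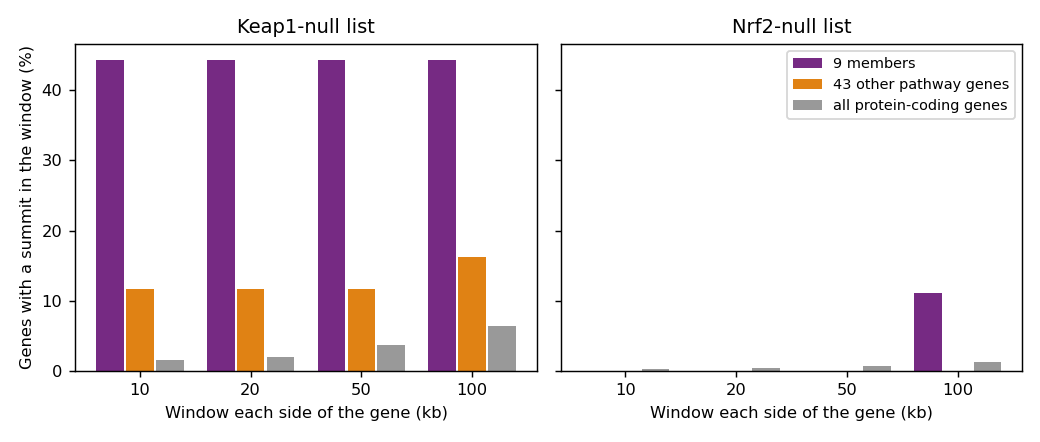
Percent of genes with a peak summit in the gene or within 10, 20, 50 or 100 kb of it, for the Keap1-null list (left) and the Nrf2-null list (right); bars are the 9 members, 43 other pathway genes and all protein-coding genes. The members' bar stays at 44.4% on the left, and on the right it is above 0 only at 100 kb, from 1 peak near Taldo1.

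All 5 sites were without an overlapping Nrf2-null peak, as were 363 of all 469 Keap1-null peaks, so this does not set the members apart. The next Nrf2-null peak, from a list of only 151, was far away. It lay 48403 kb from G6pdx, 5742 kb from Pgd, 11130 kb from Tkt and 94.0 kb from Taldo1. The last of these (chr7:141297907-141298424) was inside Deaf1, where the Nrf2-null libraries had −log10 p of 9.68 (first) and 11.1 (second), and it had no Keap1-null counterpart. The −log10 p is the authors' measure of enrichment in one library and rises with sequencing depth, which is unknown for every library, so that an unlisted site is not shown to be empty.

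**Figure D2:**
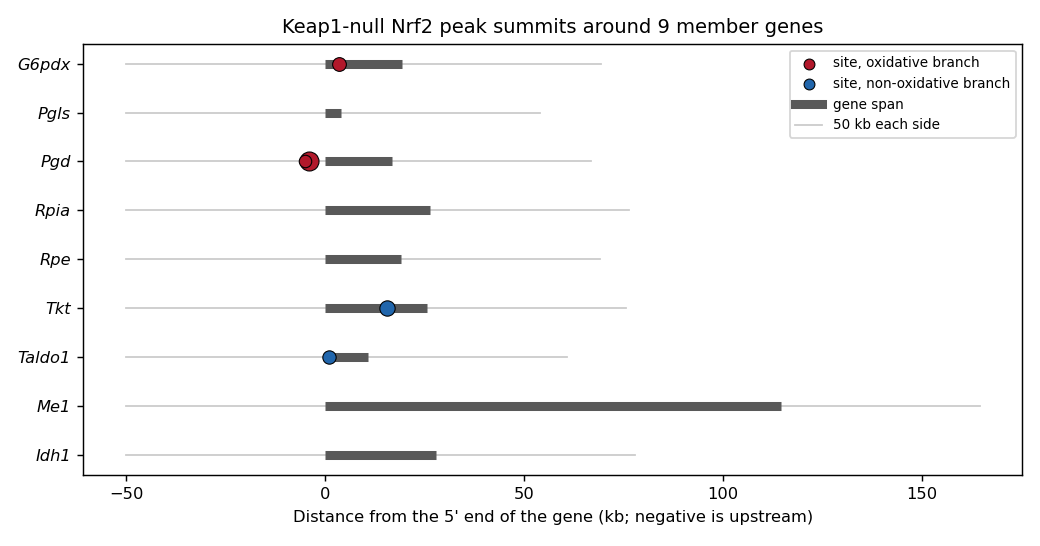
Positions of Keap1-null summits at the 9 members, as distance in kb from the 5′ end of each gene; thick bars are genes, thin lines the 50 kb on each side, and larger points have a larger smaller −log10 p of the pair of libraries. The sites sit inside G6pdx, Tkt and Taldo1 and upstream of Pgd, and the other 5 genes have none, Me1 included, whose span is the longest.

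In the oxidative branch, 2 of 3 genes had sites, and Pgd had the strongest site of all members. Pgd encodes 6-phosphogluconate dehydrogenase, the enzyme of the NADPH-yielding step that releases ribulose 5-phosphate. Both of its sites lay upstream of the gene, between its 5′ end and the 3′ end of the neighbouring Kif1b. The stronger (chr4:149170660-149171131) had its summit 4.16 kb upstream of the Pgd start and 472 bp of width. Its −log10 p was 49.9 in the first and 30.9 in the second library, and it ranked 24 of 469 by irreproducible discovery rate (IDR), a score of how reproducibly a peak ranks in both libraries, with an IDR of 7.76e-05. Ranked by one library at a time it stood at 25 in the first and 42 in the second. The other member sites reached at most 21.7 in the first and 18 in the second library.

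The weaker Pgd site (chr4:149171456-149172032) lay 885 bp farther upstream, summit to summit, with 324 bp between the peaks. It had −log10 p of 9.94 and 13.9, an IDR of 0.0236 and rank 364. Its joined width of 577 bp exceeded that of its stronger neighbour. By library it was narrower in the first (430 against 472 bp) and wider in the second (487 against 393 bp). It was the 1 member site that was stronger in the second library, against 4 that were stronger in the first. In the whole Keap1-null list the first library gave the higher value at 72.9% of peaks. Among its 363 peaks without an Nrf2-null counterpart, as all member sites are, that share was 81.5%. The summit was 5.04 kb from Pgd and 4.57 kb from the end of Kif1b, a kinesin motor gene, so that by nearest gene end this site goes to Kif1b. The nearest annotated start was still that of Pgd, since Kif1b runs in the same direction and starts farther away. The Keap1-null list held 26 neighbouring pairs of summits within 1000 bp. Of these, 24 lay close together where the assembled sequence of chromosome 9 begins, and the Pgd pair was 1 of the 2 elsewhere. The Nrf2-null list also held 26 such pairs, 25 of them in that stretch of chromosome 9. Over all protein-coding genes, 0.300% had 2 or more Keap1-null summits within 50 kb. Both Pgd sites share a locus and are not separate observations of the gene.

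G6pdx encodes glucose-6-phosphate dehydrogenase, which commits glucose 6-phosphate to the pathway. Its site (chrX:74425107-74425746) lay inside the gene, 3.50 kb downstream of the start and 18.1% of the way along it. The −log10 p was 19.3 in the first and 13.3 in the second library, with an IDR of 0.00440 and rank 186. At 640 bp it was the widest member site, wider than 91.3% of the list. That width came from the first library, where the peak spanned 640 bp against 279 bp in the second, and 3.20% of the list had so large a ratio of widths. The summits of both libraries were nonetheless 19 bp apart.

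The G6pdx summit also lay inside Ikbkg, which encodes the regulatory subunit of the IκB kinase and overlaps G6pdx on the other strand. An annotated start of Ikbkg was 764 bp away, nearer than the G6pdx start. Position alone does not assign this site to either gene. It was 1 of 2 peaks on the X chromosome without an Nrf2-null counterpart.

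Pgls, whose product 6-phosphogluconolactonase opens the lactone made by G6pdx, had no site. Its nearest Keap1-null peak was 1085 kb away, inside Rex1bd, at −log10 p of 15.7 and 10.5. Its nearest Nrf2-null peak was 12161 kb away.

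In the non-oxidative branch, the sites fell at Tkt and Taldo1, the carbon-transferring enzymes, and not at the isomerase and epimerase. Tkt encodes transketolase, which moves units of a pair of carbons between sugars. Its site (chr14:30564422-30564857) lay inside the gene, 15.5 kb downstream of the start and 10.1 kb from the 3′ end. The first library gave a −log10 p of 21.7 and the second 18, a ratio of 1.21, with an IDR of 0.00234 and rank 134. This was the most even of the 4 sites that were stronger in the first library, and its library summits, 12 bp apart, were the closest of the 5. The peak spanned 436 bp, with 436 bp in the first and 397 bp in the second library. The next protein-coding gene end, that of Prkcd, was 30.7 kb away.

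Taldo1 encodes transaldolase, which works beside transketolase. Its site (chr7:141392957-141393287) was the 1 member site near a gene end, 944 bp downstream of the start. The −log10 p was 17.2 and 12.2, with an IDR of 0.00633 and rank 216. At 331 bp it was the narrowest member site, narrower than the list's median of 409 bp, and the libraries gave 323 and 307 bp with summits 26 bp apart. Gatd1 had the next gene end at 15.1 kb, and 6 protein-coding genes lay within 50 kb of the summit, the most at any member site.

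Rpia, the ribose 5-phosphate isomerase, and Rpe, the ribulose-phosphate epimerase, had no site. The Keap1-null peak nearest to Rpia was 1249 kb away at −log10 p of 8.37 and 7.93, and an Nrf2-null peak overlapped it. For Rpe the nearest Keap1-null peak was 8671 kb away, at Aox1.

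The other cytosolic NADPH sources had no site in either list. Me1, the cytosolic malic enzyme, has the longest window of the members, 215 kb, and its nearest Keap1-null peak was 1857 kb away at 16.9 and 24.0. An Nrf2-null peak overlapped that one too. Idh1, the cytosolic isocitrate dehydrogenase, was 7129 kb from its nearest Keap1-null peak, the same peak at Aox1. Each of the 5 members without a site was thus over 1000 kb from any Keap1-null peak, while each site of the other 4 was within 10 kb of its gene or inside it. The window of 50 kb therefore did not decide which members had a site.

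Among themselves the sites ranged from 9.94 to 30.9 in the smaller −log10 p of the libraries, with a median of 13.3 against 12.1 for the whole Keap1-null list and 11 for its 363 peaks without an Nrf2-null counterpart. In order of that value came Pgd (the stronger site), Tkt, G6pdx, Taldo1 and the weaker Pgd site. The range over both libraries of the stronger Pgd site did not overlap that of any other member site. Tkt, G6pdx and Taldo1 came in the same order in each library, with ranks of 172, 207 and 242 in the first and 148, 223 and 261 in the second. The weaker Pgd site was below Taldo1 in the first library and above both Taldo1 and G6pdx in the second. Over both libraries the ranges of neighbours among these 4 sites overlapped; the first library had the higher median over the whole list (17.8 against 13). Above the whole list's median for each library were 3 of 5 sites in the first library and 4 of 5 in the second. These counts depend on the reference, since the 363 peaks without an Nrf2-null counterpart had lower medians, 16.9 and 11.7. Taldo1, at 17.2 and 12.2, lay below the whole list's medians and above those of the 363 peaks. In width, 4 of 5 were above the list's median. No site was tested, since each list joins its libraries and gives 1 value per library and peak.

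**Figure D3:**
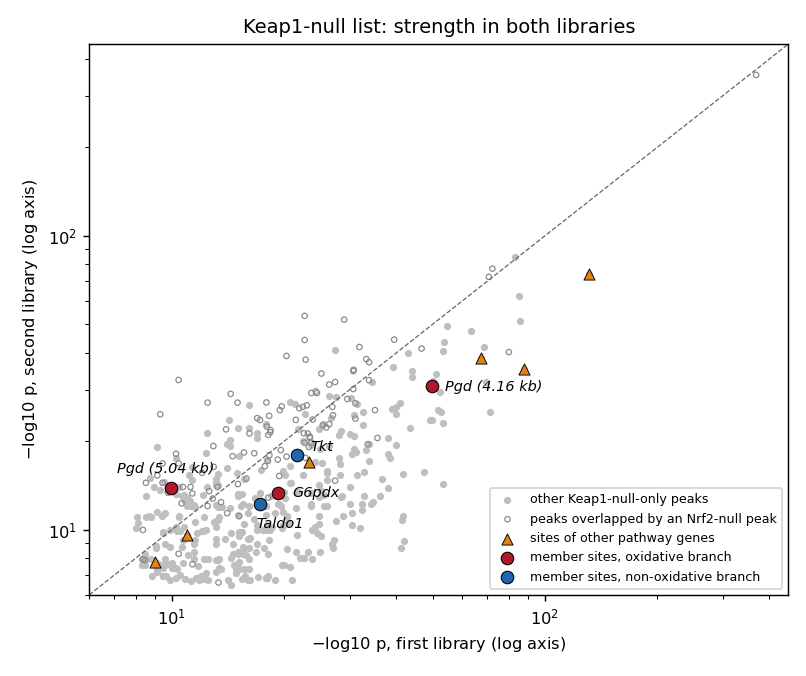
−log10 p of each Keap1-null peak in the first (x) and second (y) library, both on log axes, with the dashed line at equal values; member sites are coloured by branch and triangles are sites of other pathway genes. The stronger Pgd site, at 49.9 and 30.9, stands apart from the other members, which lie in the body of the list, and the weaker Pgd site is the member above the line.

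**Figure D4:**
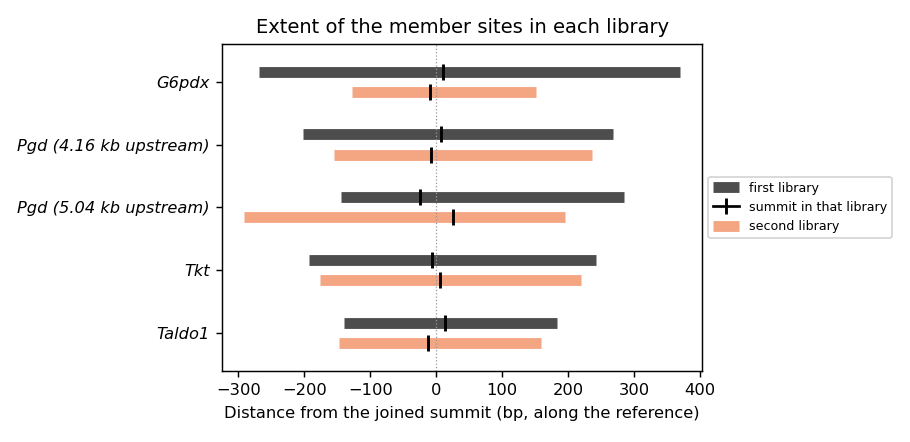
Extent of each member peak in the first and second library, in bp from the joined summit, with the summit of each library as a tick. The libraries cover nearly the same stretch at Tkt and Taldo1, while at G6pdx the first library reaches farther on both sides, 640 bp against 279 bp.

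Positions were mixed: 1 site was at a gene end (within 1000 bp), 2 were inside a gene farther from its ends, and 2 were outside, up to 5.04 kb away. Among the 363 Keap1-null peaks without an Nrf2-null counterpart, 11.3% were at an end of a protein-coding gene, 43.3% farther inside, 29.8% outside within 50 kb and 15.7% farther away. With 5 sites, 2 of them at 1 gene, no difference from these shares can be read. The summits of the libraries were 12 to 49 bp apart at the member sites, the largest gap being at the weaker Pgd site, against a median of 32 bp over the 363 peaks.

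Of 43 other genes of the pathway, in 6 groups, 5 had a Keap1-null summit within 50 kb (11.6%, exact 95% Clopper-Pearson interval 3.89 to 25.1), with 6 sites in all, and 0 had an Nrf2-null summit. The share of all protein-coding genes was 3.70% for the Keap1-null list and 0.693% for the Nrf2-null list, so 0 of 43 is near the background. Both gene lists were chosen with earlier results of these data known, so their intervals give counting error only. The difference between the lists was not tested. Of 9 paralogs and side enzymes, Rbks alone had one. Rbks encodes ribokinase, which feeds free ribose into the pathway, and its site (chr5:31630038-31630630) lay inside the gene, 5.98 kb from the 3′ end, at −log10 p of 23.3 and 17 with rank 130. Of 5 glucose entry genes, Slc2a1, the glucose transporter GLUT1, had one, 12.8 kb inside the gene (chr4:119121379-119121643) at 11 and 9.62 with rank 355. The groups without a site were the 11 mitochondrial and folate NADPH sources, the 8 NADP synthesis genes and the 4 citrate supply genes.

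Of 6 genes whose products use NADPH, 3 had sites. Txnrd1, the cytosolic thioredoxin reductase, had 2, and at 131 and 74.3 the stronger lay 79 bp upstream of an inner annotated start of the gene. Nqo1, a quinone reductase, had one at 67.5 and 38.3. Gsr, the glutathione reductase, had one inside the gene, 165 bp from its nearer end, at 8.99 and 7.77 and with rank 436. The promoter entries gave no strand for Gsr, so whether that end is 5′ or 3′ was not determined. The strongest site of the NADPH-making genes, at Pgd, was therefore below those of Txnrd1 and Nqo1 in both libraries and above that of Gsr. All 3 are known targets of Nrf2 in other tissues, and their sites were known when the list was written.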

How the data were processed

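Nrf2 ChIP and input chromatin were sequenced from Keap1-null and Nrf2-null satellite cells, 2 libraries each, 8 in all, told apart by a bench number; whether benches were separate animals is not stated, so the spread may be technical. Fixation was in 1% formaldehyde (10 minutes), with 1.5 μg of antibody, per the labels' protocols. Trim Galore 0.6.10, BWA 0.7.17, SAMtools 1.6, MACS2 2.2.7.1 and build mm10 are named in the submitters' processing notes. No source used here gives settings, the IDR version or the use of inputs.

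The authors deposited 1 peak list per genotype in IDR layout, with an IDR of at most 0.05. Each peak has the authors' −log10 p in each library, the smaller of the 2, the −log10 of its IDR and a deposited score, which is the IDR rescaled. Fold and q columns hold a placeholder. Library columns do not name the bench. Read totals are not in the files, so depth is unknown.

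Summits were placed on 49554 RefSeq genes (GRCm38.p6), 21631 of them protein-coding, on chromosomes with peaks. Promoter entries gave strand and starts for all 9 members, with sequences from RefSeq. Members, lists and the 43 other pathway genes were chosen with earlier results of these data known. All 9 members are named, as are other pathway genes with a summit within 50 kb, the nearest other gene of each site and the next peak of members without one. Peaks overlapping by at least 1 bp count as counterparts. No test was run, as each genotype has 1 list. Window and overlap functions were tested on simulated data. Alternatives are in the closing section. Python 3.11.15, pandas 2.3.3, numpy 2.4.6, SciPy 1.17.1 and matplotlib 3.10.9 were used.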

Additional observations from a re-analysis of the deposited data

How the results depend on the processing

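The count of 4 members with a Keap1-null site held under windows of 10, 20 and 100 kb, an IDR of at most 0.01, any base of the peak in the window and the nearest gene alone. In the last of these the G6pdx summit, which lies inside both G6pdx and Ikbkg, went to G6pdx by its nearer gene end. By the nearest annotated start, chosen after seeing the data, that summit goes to Ikbkg and the count is 3. The share of all genes was not computed for the nearest start. The count of 4 also held with Keap1-null peaks that lack an Nrf2-null counterpart, a setting chosen after seeing the data. The sites numbered 5, or 4 at the strict IDR and with the nearest gene alone, both of which drop the weaker Pgd site and put the median smaller −log10 p at 15.7. With 100 kb 1 member, Taldo1, had an Nrf2-null site in place of 0. Other pathway genes with a site fell to 3 at the strict IDR, losing Slc2a1 and Gsr. The share of all protein-coding genes was 1.47% with 10 kb, 1.98% with 20 kb, 6.36% with 100 kb, 2.03% at the strict IDR, 1.47% with the nearest gene alone and 3.31% without shared peaks, as the settings themselves change the peaks or the window. Sites at a gene end numbered 0 within 500 bp and 3 within 5000 bp; by distance to a start, chosen after seeing the data, the count within 1000 bp was 1 for the member's own start and 2 for any protein-coding gene's start, since the G6pdx site is near one of Ikbkg. The core was found in 1 member with an A required after it and in 6 as TGANNNNGC, against 3.17% and 45.5% of genes. No member site had a counterpart at 50% overlap or within a gap of 1000 bp.

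No paired analysis was possible because the libraries of a genotype were joined and cannot be tied to a bench number. Leaving out a library was not run, since a listed peak needs both. Unknown depth limits what an unlisted peak means.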

Other observations

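Among the other pathway genes, a pair lay just beyond the 50 kb window. H6pd, the form of glucose-6-phosphate dehydrogenase of the endoplasmic reticulum, was 56.7 kb from a Keap1-null peak inside Spsb1 with −log10 p of 8.78 (first library) and 7.93 (second). Pgm2, which converts ribose 1-phosphate to ribose 5-phosphate, was 70.3 kb from a Keap1-null peak inside Tbc1d1 at 32.4 and 11.7. Neither peak had an Nrf2-null counterpart. These genes are named here after their values were seen.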
